A study of Rattus norvegicus with 12 samples.

Results

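The transcripts described here lie at genes of the ubiquitin system, and they were chosen by locus name. A transcript was included where its locus name in the deposited long noncoding RNA table began with Ube, with Usp or Cul and a digit, or with Fbxo, Fbxl, Fbxw, Trim, Rnf, Otud, Psm, Herc or Nedd4. This gave 245 of the 22591 transcripts, at 148 loci. RNA was measured in the lumbosacral spinal cord of Wistar rat fetuses at embryonic day 19, with 3 libraries from fetuses with anorectal malformations (ARM) induced with ethylenethiourea (ETU) and 3 libraries from normal fetuses. ETU is a teratogen that also blocks thyroid hormone synthesis, and every ARM library came from an ETU-induced fetus, so exposure and malformation cannot be told apart. The labels do not say whether libraries came from separate fetuses or litters, so each p-value measures only the spread between these libraries, which may be technical. The RNA was taken from whole tissue, in which fewer cells of a type and less RNA per cell cannot be told apart.

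The ubiquitin system marks proteins for removal or for a change of function. An E1 enzyme activates ubiquitin, an E2 conjugating enzyme carries it, and an E3 ligase places it on a chosen protein. Deubiquitinases take it off again, and the proteasome degrades proteins that carry ubiquitin chains. In developing neurons the system is known for its part in axon growth, synapse formation and the turnover of cell cycle proteins. The locus name says only where a transcript lies, and none of these transcripts is taken here to be a messenger RNA. Sums and shares of a locus cover only its transcripts listed in the long noncoding RNA table, not all RNA of the gene.

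The promoters of Psmd9 and Ube2d3 are shown because the only 2 members that DESeq2 called lie at these loci, although edgeR and limma-voom called none. Each window is the RefSeq reference sequence, in the build GRCr8, of the 250 bases before the gene's annotated start, on the strand of the gene. The build of the deposited coordinates is not given in the sources used here, and the transcripts' own starts were not matched to these windows. Capitals mark matches on either strand to the letters of 4 motifs. The GC box was searched as GGGCGG and the CCAAT box as its own letters. The TATA box was searched as TATAAA and the core of the antioxidant response element as TGACNNNGC.
Psmd9 at chr12:39018265-39018514, minus strand: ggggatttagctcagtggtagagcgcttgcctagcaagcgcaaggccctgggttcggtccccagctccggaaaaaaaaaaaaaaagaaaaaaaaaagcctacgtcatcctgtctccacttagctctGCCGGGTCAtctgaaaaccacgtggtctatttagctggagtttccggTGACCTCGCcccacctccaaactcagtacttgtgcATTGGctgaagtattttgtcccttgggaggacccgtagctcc
Ube2d3 at chr2:226542944-226543193, plus strand: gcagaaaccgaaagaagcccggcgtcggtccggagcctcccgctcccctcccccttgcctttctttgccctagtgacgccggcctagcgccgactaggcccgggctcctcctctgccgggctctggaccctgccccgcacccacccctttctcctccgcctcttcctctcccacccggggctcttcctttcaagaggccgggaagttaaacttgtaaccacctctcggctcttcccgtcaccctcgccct
The Psmd9 window held 2 antioxidant response element cores and 1 CCAAT box at 51.6% GC, and the Ube2d3 window held none of the 4 motifs at 66.4% GC. A RefSeq window was found for 120 of the 146 gene symbols, giving 123 windows. The GC box occurred in 65.9% of these windows and in 38.9% of all 21851 protein-coding windows. The antioxidant response element core occurred in 13.8% and 10.5% of windows, the CCAAT box in 33.3% and 35.0%, and the TATA box in 9.76% and 12.1%, member windows given before all protein-coding windows. These matches describe the letters only.

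Among the 245 transcripts, 32 lay at loci of E2 enzymes, 14 at loci of HECT or U-box ligases, 81 at loci of RING ligases, 8 at cullin loci, 41 at loci of F-box proteins, 36 at deubiquitinase loci and 33 at proteasome loci. A single transcript was listed at 90 of the loci, and the Ube2d3 and Rnf4 loci had 6 each. Their median length was 697 bases, within a range of 228 to 3179 bases, and 76 of the 245 (31.0%) were a single unspliced block. Among the 18598 other transcripts with names of the same AceView catalogue, 50.2% were a single block. Coordinates of 102 of the 245 (41.6%) overlapped those of another listed transcript, so reads there may have been split between them, and the strand setting of the counting is not given in the sources used here. The chromosome could be compared with RefSeq for 242 transcripts and was the same for 241. The exception was Ube2n.bSep08, a 321-base single block on chromosome 1 (87632079 to 87632399), whereas the RefSeq gene Ube2n lies on chromosome 7.

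The 6 libraries held 3285614 to 3721901 counts in ARM and 3428655 to 3865088 counts in normal cords. Levels are given as CPM, the count scaled to a library of 1000000 counts. Sums over transcripts were scaled by total counts alone. At these depths 3 counts correspond to 0.776 to 0.913 CPM, a limit that covers counting error only. The summed level of the members was 7735 ± 200 CPM in ARM and 7382 ± 385 CPM in normal cords (SD, n = 3 each), and the library values overlapped. Markers of neurons were checked in the same table, where 6 of 12 listed marker genes had a transcript. Their summed level was 338 to 370 CPM in ARM and 270 to 320 CPM in normal cords, without overlap, and the part of this in the results below was not tested. Markers of motor neurons rested on Lhx3 alone, at 2.74 to 8.06 CPM in ARM and 5.95 to 7.87 CPM in normal cords. Astroglial markers, with 4 of 11 genes present, summed to 115 to 133 CPM in ARM and 126 to 128 CPM in normal cords. Sensory ganglion markers, with 3 of 8 genes present, summed to 511 to 583 CPM in ARM and 383 to 523 CPM in normal cords. Mesenchyme and cartilage markers, with 4 of 9 present, summed to 39.2 to 97.7 CPM in ARM and 24.1 to 55.3 CPM in normal cords. Skeletal muscle markers, with 2 of 10 present, did not overlap between groups but were near the 3-count limit, at 1.22 to 1.42 CPM in ARM and 0 to 0.875 CPM in normal cords. Markers of oligodendrocytes, endothelium, microglia and erythroid cells overlapped between groups.

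Per length, the members were listed at a median of 11.9 CPM per kilobase, within a range of 0.217 to 705, and the other AceView transcripts at a median of 7.06. A few transcripts held much of the counts. The transcript Ube2d2.bSep08 alone held 18.3% of the members' counts and the 5 highest held 44.0%. E2 loci held 46.9% of the counts, followed by RING ligase loci with 24.6%, F-box loci with 11.7%, deubiquitinase loci with 9.75%, proteasome loci with 4.09%, HECT or U-box loci with 2.25% and cullin loci with 0.693%. The median level per length was also highest for E2 loci, at 21.6 CPM per kilobase, and was lowest for proteasome loci, at 8.51.

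The comparison of ARM with normal cords asked which of these transcripts differ with the malformation. None of the 179 members that passed the expression filter had an edgeR adjusted p under 0.05, where 0.12% of all 13343 tested transcripts did. limma-voom also called 0, and DESeq2 called 2, Psmd9.bSep08 with an adjusted p of 0.0357 and Ube2d3.dSep08 with an adjusted p of 0.0171, where it called 0.46% of 16742 transcripts. At an unadjusted edgeR p under 0.05 there were 14 members, 11 with a higher and 3 with a lower estimate in ARM, which is 7.82% of the members beside 5.98% of all tested transcripts, 3.44% higher and 2.54% lower. The libraries of the groups did not overlap for 23 members (12.8%), 19 above and 4 below normal. Of all tested transcripts 11.9% had no overlap, 7.29% above and 4.58% below. Many members named below were chosen by a small unadjusted edgeR p, so their lack of overlap is no separate support. Estimates were higher in ARM for 106 and lower for 73 members, so 59.2% were higher, beside 51.5% of all tested transcripts. The median log2 fold change was 0.08 beside 0.01 for all tested transcripts. The absolute log2 fold change was under 0.5 for 138 members and at least 1 for 7. The other 66 members were too low to test, with 3 to 73 counts over the 6 libraries. Among them Fbxo23.eSep08 had 0 counts in ARM and 13 in normal cords, with 0 in normal replicate 2.

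**Figure D1:**
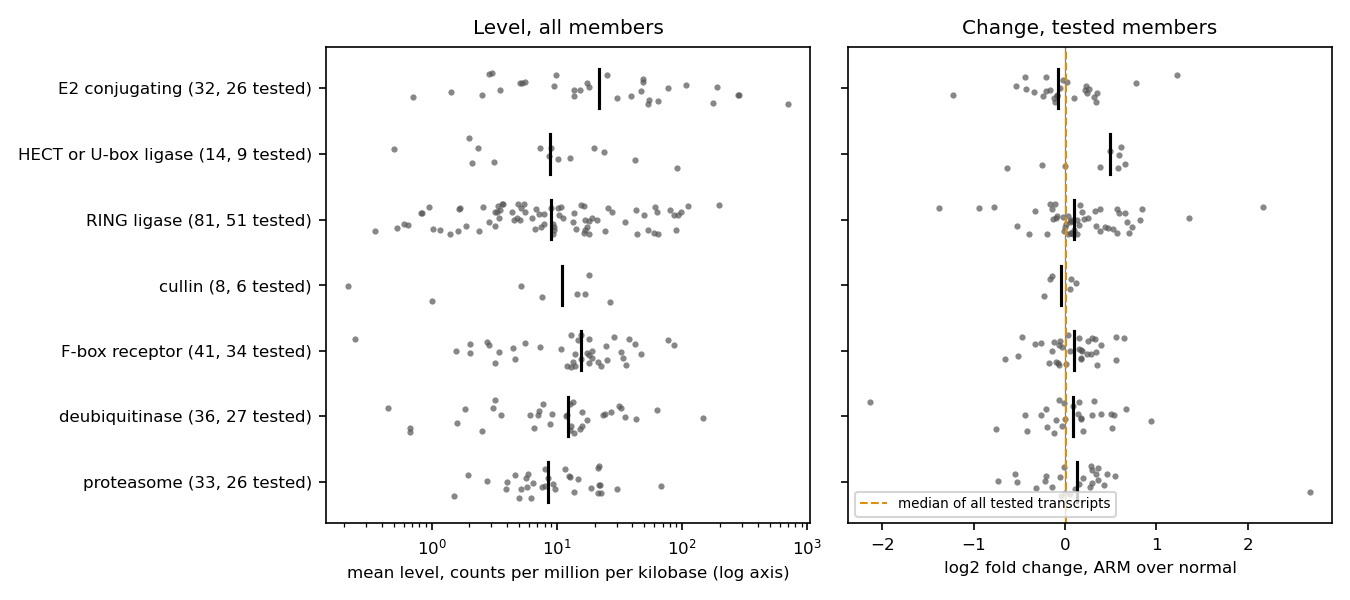
Level (left, CPM per kilobase, log axis) and log2 fold change of ARM over normal (right) of ubiquitin system transcripts by class, 1 point per transcript, with the class median as a black bar. E2 loci have the highest median level, 21.6, and the class medians of the fold change lie near 0 except that of the HECT or U-box ligases, at 0.49.

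E2 conjugating enzymes carry activated ubiquitin and influence which chain is built. Their loci held more of the counts than any other class, and 26 of 32 transcripts were tested, 11 with a higher and 15 with a lower estimate in ARM and a median log2 fold change of -0.07. Summed, they stood at 3577 ± 103 CPM in ARM and 3517 ± 260 CPM in normal cords (SD, n = 3 each). Ube2d2 and Ube2d3 encode near-identical enzymes of the UBE2D family, which work with many different ligases, so reads of their transcripts are uncertain where the authors' counting could share them.

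Ube2d3.dSep08, a 1152-base transcript at chromosome 2, 240626381 to 240654728, had 1100, 872 and 1286 counts in the ARM libraries and 694, 400 and 307 counts in the normal libraries. Every ARM library stood above every normal library. The mean was 309 ± 53.6 CPM in ARM and 132 ± 64.8 CPM in normal cords, a log2 fold change of 1.22 (SE 0.34, edgeR adjusted p = 0.832). Without normal replicate 1 the log2 fold change was 1.67 and the edgeR adjusted p was 0.146. Ube2d3.cSep08, a 2136-base transcript over nearly the same span, had 1639, 2115 and 1858 counts in ARM and 2186, 2420 and 2627 counts in normal libraries. Here the groups did not overlap either, with ARM below normal. Its log2 fold change was -0.34 (SE 0.12, edgeR adjusted p = 0.832). The shorter Ube2d3.gSep08 had a log2 fold change of -0.54 with overlapping groups.

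Summed over the listed transcripts of the Ube2d3 locus, the groups overlapped. The summed counts were 2813, 3092 and 3243 in ARM and 2998, 2987 and 3031 in normal libraries, with a log2 fold change of 0.03 (SE 0.09, edgeR adjusted p = 0.967). Within the total, Ube2d3.dSep08 took 39.1%, 28.2% and 39.7% of counts in ARM and 23.1%, 13.4% and 10.1% in normal libraries. Ube2d3.cSep08 took 58.3%, 68.4% and 57.3% in ARM and 72.9%, 81.0% and 86.7% in normal libraries. The shares did not overlap between the groups for either transcript. The transcripts overlap along the chromosome and may share reads, the locus was singled out after its values were seen, and 3 against 3 libraries cannot give an exact permutation p under 0.1, so the shares are given as a description.

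**Figure D2:**
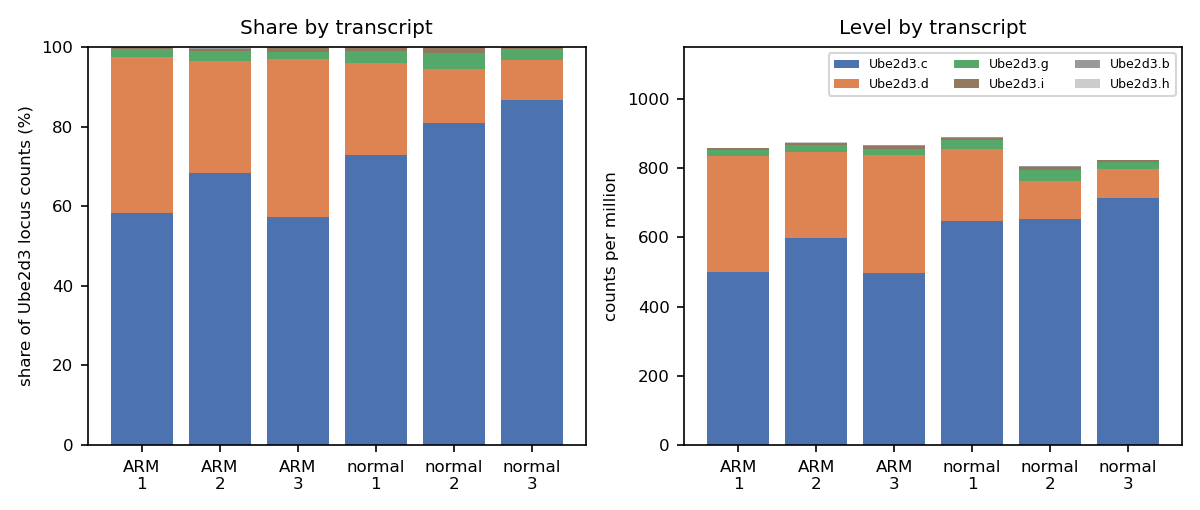
Transcripts of the Ube2d3 locus in each library as a share of the locus' counts (left, %) and as CPM (right), ARM libraries left of normal libraries. The share of Ube2d3.dSep08 is 28.2% to 39.7% in ARM and 10.1% to 23.1% in normal cords, while the bars on the right have similar heights.

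Ube2k.eSep08 lies at the gene of an E2 that builds K48-linked chains, the type best known as a proteasome signal. It had 159, 187 and 206 counts in ARM and 239, 274 and 245 counts in normal libraries. All ARM libraries were below all normal libraries, at 52.2 ± 3.30 CPM in ARM and 70.5 ± 3.80 CPM in normal cords, with a log2 fold change of -0.43 (SE 0.12, edgeR adjusted p = 0.832). Ube2m encodes the E2 for NEDD8, the ubiquitin-like protein that activates cullin ligases. Ube2m.bSep08 had 365, 344 and 404 counts in ARM and 278, 297 and 325 counts in normal libraries, again without overlap. Its log2 fold change was 0.34 (SE 0.12, edgeR adjusted p = 0.832). At Ube2q1, Ube2q1.dSep08-unspliced had 28, 35 and 31 counts in ARM and 13, 27 and 16 counts in normal libraries, a log2 fold change of 0.78. The most abundant member, Ube2d2.bSep08, had 4452, 5014 and 4900 counts in ARM and 4737, 4966 and 5875 counts in normal libraries, which overlap, and its log2 fold change was -0.09 (SE 0.10). Ube2j1.cSep08-unspliced, at the gene of an E2 of the endoplasmic reticulum, had a log2 fold change of -0.05.

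HECT ligases take ubiquitin onto themselves before passing it on, and U-box ligases bind the E2 directly. Of 14 transcripts at these loci 9 were tested, 6 with a higher and 3 with a lower estimate and a median log2 fold change of 0.49, and none had an unadjusted edgeR p under 0.05. NEDD4 and NEDD4L are HECT ligases known for removing membrane channels and receptors. All 4 tested transcripts at these 2 loci, 2 at each, had higher estimates, with log2 fold changes of 0.39 to 0.65 under TMM scaling. Transcripts of the same locus are not separate observations, and 51.5% of all tested transcripts had higher estimates. The locus sums had log2 fold changes of 0.53 at Nedd4 (SE 0.24, edgeR adjusted p = 0.822) and 0.54 at Nedd4l (SE 0.45, edgeR adjusted p = 0.879). These loci were not singled out by a rule set beforehand. Across the other scalings, tools and left-out libraries run, 3 or 4 of the 4 transcripts were higher. Nedd4.cSep08 had 57, 51 and 57 counts in ARM and 20, 50 and 43 counts in normal libraries, so the groups stood apart by a single count. Nedd4.bSep08 had 29, 53 and 58 counts in ARM and 25, 39 and 37 counts in normal libraries, which overlap. The abundant Ube3c.aSep08 stood at 83.5 ± 4.49 CPM in ARM and 83.5 ± 5.29 CPM in normal cords. Herc3.cSep08 had a log2 fold change of -0.25 and Herc4.dSep08-unspliced of -0.63, both with overlapping groups. The value for Herc3.cSep08 was -0.04 without ARM replicate 2 and -0.54 without ARM replicate 3, and that for Herc4.dSep08-unspliced was -0.36 without normal replicate 2.

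RING ligases hold the E2 and the target together, and their loci had the most transcripts. Of 81 transcripts 51 were tested, 36 with a higher and 15 with a lower estimate, with a median log2 fold change of 0.10. That is 70.6% higher, beside 51.5% of all tested transcripts. The 5 with an unadjusted edgeR p under 0.05 (9.80% of the class) were all higher. Of all tested transcripts 5.98% had such a p, 3.44% higher and 2.54% lower. Among the 5 was Rnf181.bSep08, whose groups overlapped and whose estimate rested largely on ARM replicate 2. The ARM libraries were entirely above the normal libraries for 10 of the class and entirely below for 1, where 7.29% of all tested transcripts were above and 4.58% below. Between 32 and 38 of the class were higher across the other settings run. Rnf8 encodes a ligase of the DNA damage response, and Rnf8.cSep08-unspliced had 16, 21 and 22 counts in ARM and 12, 13 and 13 counts in normal libraries. Trim3, at the gene of a brain-enriched TRIM protein, had 18, 21 and 13 counts of Trim3.eSep08-unspliced in ARM and 8, 11 and 11 counts in normal libraries. Normal replicate 1 was below the level that the expression filter asks for, so Trim3.eSep08-unspliced would not have passed on the normal libraries alone. Rnf4 and Rnf111 encode ligases that recognise SUMO-modified proteins. Rnf4.bSep08-unspliced had 87, 88 and 95 counts in ARM and 54, 77 and 73 counts in normal libraries. Rnf111.dSep08 had 26, 16 and 30 counts in ARM and 10, 16 and 15 counts in normal libraries, where the lowest ARM and the highest normal count were equal and the groups stood apart only in CPM. Their log2 fold changes were 0.65 for Rnf8, 0.82 for Trim3, 0.44 for Rnf4 and 0.84 for Rnf111, each with an edgeR adjusted p of 0.832.

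The dominant transcript at Rnf4, Rnf4.dSep08, had 1788, 2313 and 1975 counts in ARM and 1849, 1974 and 2496 counts in normal libraries. It overlapped between groups with a log2 fold change of -0.03, and Rnf4.cSep08 had -0.94 with overlapping groups. For Rnf4.cSep08, ARM replicate 2, with 6 counts, was below the level that the expression filter asks for. Some larger differences rested on a single library. Rnf181.bSep08 had 28, 373 and 90 counts in ARM and 46, 31 and 32 counts in normal libraries, and its log2 fold change of 2.17 was 0.68 without ARM replicate 2. Trim2.dSep08 had 10, 30 and 181 counts in ARM and 27, 20 and 37 counts in normal libraries, and its log2 fold change of 1.36 was -0.43 without ARM replicate 3. Trim2.cSep08 had 105, 122 and 23 counts in ARM and 134, 67 and 173 counts in normal libraries, with a log2 fold change of -0.53 that was -0.07 without ARM replicate 3. Rnf181.bSep08 and Trim2.dSep08 were picked out after their values were seen.

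Cullins are the scaffolds of the multi-subunit ligases that NEDD8 activates. Of 8 transcripts 6 were tested, 3 in each direction (0 to 4 higher in the other settings run), and their sum was 51.2 ± 3.80 CPM in ARM and 53.4 ± 8.65 CPM in normal cords. Cul1.dSep08-unspliced had a log2 fold change of -0.23 and Cul5.eSep08-unspliced of 0.06, and both overlapped between groups. F-box proteins choose the targets of cullin 1 ligases. Of 41 transcripts 34 were tested, 20 with a higher and 14 with a lower estimate, with a median log2 fold change of 0.10. All 5 tested transcripts at Fbxw loci were higher by 0.15 to 0.26, and 4 or 5 of them were higher in the other settings run. Of the 5, 3 came from the single locus Fbxw2. At Fbxo loci 8 of 18 tested transcripts were higher, with a median log2 fold change of -0.07. At Fbxl loci 7 of 11 were higher, with a median of 0.03. The Fbxw loci were not singled out by a rule set beforehand.

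Fbxo18, now named Fbh1, encodes a DNA helicase with an F-box. Fbxo18.fSep08-unspliced had 65, 73 and 78 counts in ARM and 49, 52 and 48 counts in normal libraries, a mean of 20.4 ± 0.526 CPM in ARM and 13.9 ± 0.773 CPM in normal cords. Its log2 fold change was 0.56 (SE 0.16, edgeR adjusted p = 0.832), while Fbxo18.gSep08 from the same locus had -0.32 with overlapping groups. Fbxo25.cSep08-unspliced had 104, 102 and 103 counts in ARM and 78, 71 and 65 counts in normal libraries, with a log2 fold change of 0.56. Both had every ARM library above every normal library. Fbxo8.bSep08 went the other way, with 17, 25 and 28 counts in ARM and 35, 32 and 45 counts in normal libraries, and a log2 fold change of -0.66 (SE 0.25, edgeR adjusted p = 0.832). The most abundant F-box transcript, Fbxl14.aSep08-unspliced, had a log2 fold change of 0.01, and Fbxo23.bSep08, at a locus now named Tspan17, had -0.52 with overlapping groups.

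Deubiquitinases remove ubiquitin from proteins. The class was formed by name prefix, and it includes 3 tested transcripts at Usp52, a locus now named Pan2. Of 36 transcripts 27 were tested, 14 with a higher and 13 with a lower estimate, 11 to 19 were higher in the other settings run, and none had an unadjusted edgeR p under 0.05. Their sum, scaled by total counts alone, was 777 ± 6.83 CPM in ARM and 698 ± 77.5 CPM in normal cords. By library it was 780, 770 and 783 CPM in ARM and 743, 743 and 608 CPM in normal cords, with normal replicate 3 the lowest. The median log2 fold change of the class was 0.09, and -0.09 without normal replicate 3. Usp33, whose product acts in axon guidance through Robo receptors, held the most abundant deubiquitinase transcripts. Usp33.gSep08-unspliced had 927, 933 and 1117 counts in ARM and 952, 896 and 779 counts in normal libraries, with a log2 fold change of 0.20, and Usp33.dSep08 had 0.17. Usp32.cSep08 had 13, 10 and 11 counts in ARM and 10, 140 and 7 counts in normal libraries. Its log2 fold change of -2.13 (SE 1.12) rested on normal replicate 2 and was 0.41 without that library.

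The proteasome is the protease that degrades ubiquitin-marked proteins. Of 33 transcripts 26 were tested, 16 with a higher and 10 with a lower estimate, with a median log2 fold change of 0.13. Psmd9 encodes a chaperone that helps assemble the proteasome's base. Psmd9.bSep08, a 747-base transcript at chromosome 12, 38793942 to 38804657, had 33, 20 and 24 counts in ARM and 5, 5 and 2 counts in normal libraries. Every ARM library was above every normal library, at 7.38 ± 2.36 CPM in ARM and 1.13 ± 0.509 CPM in normal cords. The log2 fold change was 2.68 (SE 0.44, edgeR adjusted p = 0.264). The normal libraries were below the level that the expression filter asks for, so the transcript could enter the test only through the ARM libraries. Without the filter its edgeR adjusted p was 0.719, and with limma-voom its adjusted p was 0.699. The log2 fold change stayed between 2.35 and 2.89 when any single library was left out.

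At the same locus, Psmd9.cSep08 had 168, 214 and 170 counts in ARM and 196, 164 and 219 counts in normal libraries, which overlap, and a log2 fold change of -0.04. All listed Psmd9 transcripts summed to 271, 310 and 270 counts in ARM and 235, 251 and 275 counts in normal libraries. The log2 fold change of the sum was 0.18 (SE 0.13, edgeR adjusted p = 0.851). Psmd9.bSep08 made up 12.2%, 6.45% and 8.89% of the locus in ARM and 2.13%, 1.99% and 0.727% in normal libraries. Psmd4.dSep08-unspliced, at the gene of a ubiquitin receptor of the proteasome, had a log2 fold change of 0.37 with overlapping groups, which was 0.0042 without normal replicate 2 and 0.66 without normal replicate 3. Psme1.bSep08, at the gene of a subunit of the 11S activator, had 77, 63 and 64 counts in ARM and 58, 99 and 194 counts in normal libraries, with a log2 fold change of -0.73 that was -0.18 without normal replicate 3. Psmc3ip.dSep08 had -0.52, and this locus shares the naming prefix although its product works in meiotic recombination and is no proteasome subunit.

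**Figure D3:**
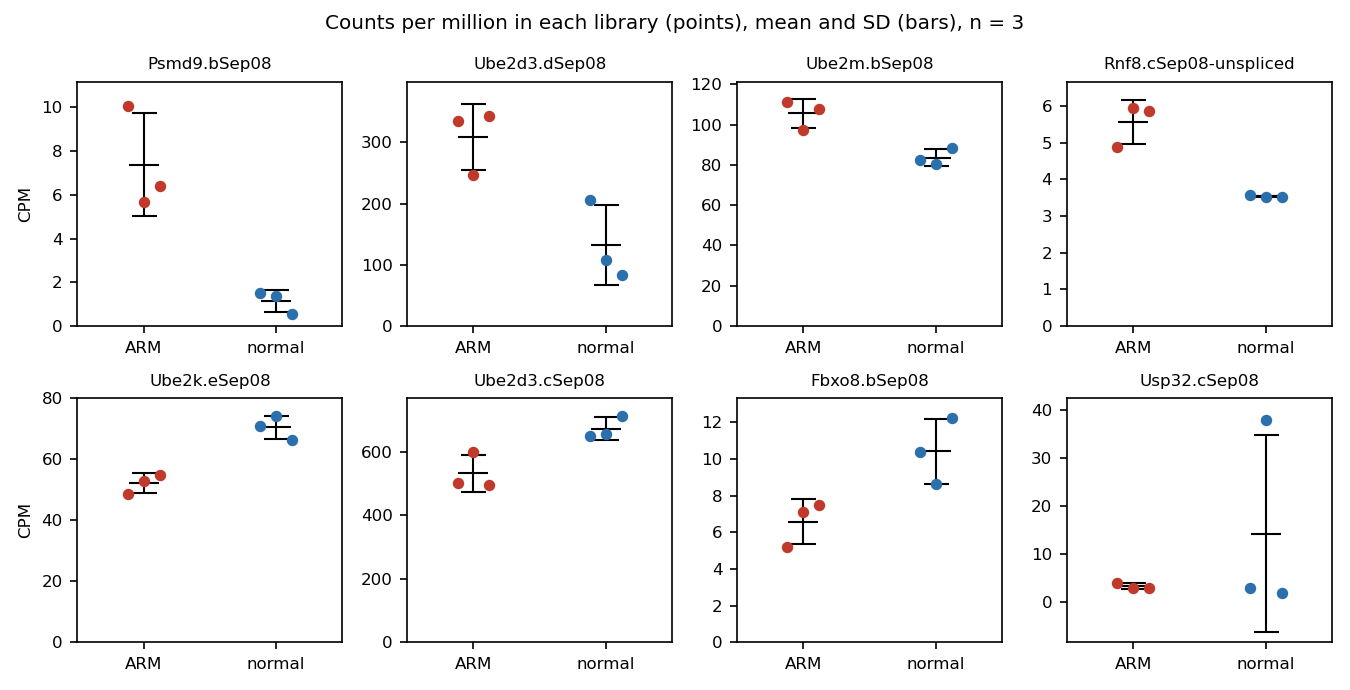
CPM of 8 ubiquitin system transcripts in each library (points) with mean and SD (bars, n = 3), ARM left of normal. ARM and normal points do not overlap except for Usp32.cSep08, where normal replicate 2, with 140 counts, stands far above the others. The transcripts shown were among those with the smallest unadjusted edgeR p, so the lack of overlap is no separate support.

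Some loci held estimates in opposite directions. How often other loci of the table did so was not counted. Of the 40 loci with at least 2 tested transcripts, 12 had all estimates higher, 5 had all lower and 23 had both directions. The median range within these loci was 0.59 on the log2 scale, and 9 loci spanned more than 1. Summed per locus, 119 loci were tested and none had an edgeR adjusted p under 0.05, where 0.137% of 11646 loci and unnamed transcripts did. limma-voom and DESeq2 also called 0. At an unadjusted edgeR p under 0.05 there were 6 loci, Ube2m, Rnf8, Rnf181, Trim3 and Rnf44 higher and Ube2k lower in ARM, beside 5.86% of all. The sum at Ube2k had a log2 fold change of -0.40 (SE 0.12, edgeR adjusted p = 0.822).

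Members were also divided by structure. Of 60 tested single-block members 40 had a higher estimate, with a median log2 fold change of 0.18, and 7 had ARM libraries above and 0 below all normal libraries, where 7.29% of all tested transcripts were above and 4.58% below. Of 119 spliced members 66 had a higher estimate, with a median of 0.04. The other AceView transcripts had a median of 0.02 over 5980 single-block and 0.04 over 4822 spliced transcripts. Higher estimates made up 53.0% and 55.2% of these, beside 66.7% of single-block and 55.5% of spliced members. The difference between the 2 kinds was not tested.

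**Figure D4:**
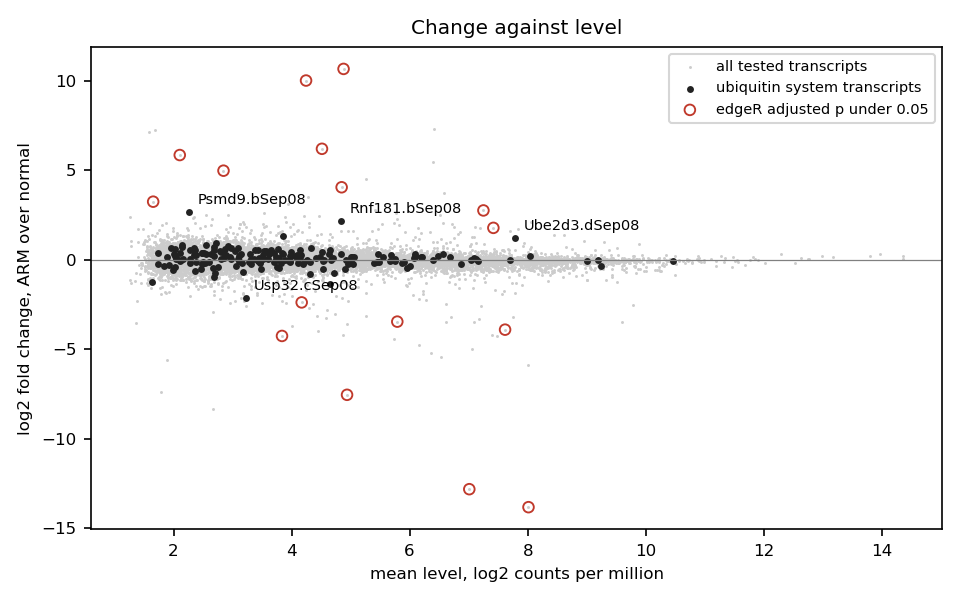
Log2 fold change of ARM over normal against mean level (log2 CPM) for all tested transcripts (grey), ubiquitin system transcripts (black) and transcripts with an edgeR adjusted p under 0.05 (red rings). No ring falls on a black point, and the labelled Psmd9.bSep08 has a log2 fold change of 2.68.

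Genes of the pathway with other names were taken from a list of 158, of which 56 had a transcript in the table. Of their transcripts 63 were tested at 46 genes, 34 with a higher and 29 with a lower estimate and a median log2 fold change of 0.03. None had an adjusted p under 0.05 by edgeR, DESeq2 or limma-voom, and 7 had an unadjusted edgeR p under 0.05, 4 higher and 3 lower, where 5.98% of all tested transcripts did. The groups did not overlap for 9 of the 63, where 11.9% of all tested transcripts had no overlap, and 4 of these are described here. Ubqln1 and Sqstm1 encode shuttle proteins that carry ubiquitin-marked cargo to the proteasome and to autophagy. Ubqln1.cSep08 had 61, 59 and 48 counts in ARM and 24, 24 and 45 counts in normal libraries, a log2 fold change of 0.89. Sqstm1.mSep08-unspliced had 357, 330 and 372 counts in ARM and 278, 294 and 208 counts in normal libraries, a log2 fold change of 0.47. Crbn encodes the substrate receptor of a cullin 4 ligase, and Crbn.cSep08 had 11, 17 and 17 counts in ARM and 20, 35 and 27 counts in normal libraries. Cops3 encodes a subunit of the COP9 signalosome, which removes NEDD8 from cullins, and Cops3.dSep08 had 12, 7 and 9 counts in ARM and 19, 17 and 17 counts in normal libraries. Their log2 fold changes were -0.83 for Crbn and -0.88 for Cops3. ARM and normal libraries did not overlap for any of these 4 transcripts. They were chosen by the smallest unadjusted edgeR p in each direction, so the lack of overlap is no separate support. For Cops3.dSep08 the ARM libraries with 7 and 9 counts were below the level that the expression filter asks for. It therefore entered the test through the normal libraries.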

How the data were processed

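Long noncoding RNA was measured in 6 libraries, 3 ARM and 3 normal. Per the file headers, the deposited values used are unnormalised read counts of each transcript. Another 6 columns of per-sample values, in FPKM, were not used, because the headings of the normal columns differ in form from their labels, fit the group only and are kept for a single measure. The replicate numbers of the normal libraries are therefore only names. CASAVA 1.8, TopHat2 2.0.9, Cufflinks 2.1.1 and Cuffdiff appear in the submitters' processing notes without a role, beside the mouse build mm10, although the table is of rat. For the counting tool, the strand setting and the rat build, nothing is given in the sources used here. The miRNA table was not used here.

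The counts of all transcripts were fitted together in edgeR 4.0.16 (R 4.3.3). The fit used TMM scaling, filterByExpr, and a quasi-likelihood test of phenotype with no covariate, with p-values adjusted by the Benjamini-Hochberg method and called under 0.05. An SE is the size of the log2 fold change over the square root of F. CPM of single transcripts are TMM-scaled. CPM summed over transcripts, and levels per kilobase, were scaled by total counts alone. The TMM factors were 1.01 to 1.02 in ARM and 0.974 to 0.997 in normal libraries. Levels of different genes were compared per kilobase. Alternatives were DESeq2 1.42.0, limma-voom (limma 3.58.1), other scalings and filters, counts summed over overlapping transcripts, and each library left out in turn. Counts were also summed per locus name and fitted in the same way.

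The text names members that were called, then the 10 higher and the 10 lower tested members with the smallest unadjusted p, and the 2 most abundant tested members of each class. The members and lists were chosen with earlier results of these data known. Of the 148 locus names, 138 are current RefSeq symbols, 8 are older symbols and 2 were not found.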

Additional observations from a re-analysis of the deposited data

How the results depend on the processing

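No member transcript or locus was called by edgeR under any scaling, filter, threshold or left-out library run. DESeq2 called 2 members, both higher in ARM, Psmd9.bSep08 (log2 fold change 2.69) and Ube2d3.dSep08 (1.20). Over all transcripts edgeR called 16, DESeq2 77, edgeR without a filter 9, and edgeR with single libraries left out 19 to 29, the 29 without ARM replicate 1. Of the 34 named members, 23 kept their direction in every alternative that was run. The log2 fold change of the other 11 changed sign in at least 1 alternative. Under DESeq2, DESeq2 size factors, no filter and summed overlaps, Fbxl14.aSep08-unspliced was at -0.024, -0.012, -0.013 and -0.0096. Ube3c.aSep08 was at 4e-05 with limma-voom, 0.045 by total counts and 0.00012 with a mean of at least 10 counts. By total counts Rnf4.dSep08 was at 0.019 and Psmd9.cSep08 at 0.0017. With overlapping transcripts summed, Psmd9.cSep08 was at 0.17, Rnf4.bSep08-unspliced at -0.034, Rnf111.dSep08 at -0.24, and Ube2d3.cSep08 and Ube2d3.gSep08 at 0.011. Psmd9.bSep08 and Ube2d3.dSep08 lie in the same sums, so they kept their direction there but only at 0.17 and 0.011. With single libraries left out, the ranges were -0.050 to 0.053 for Ube3c.aSep08, -0.13 to 0.090 for Rnf4.dSep08, -0.12 to 0.12 for Fbxl14.aSep08-unspliced, -0.31 to 0.28 for Cul5.eSep08-unspliced, -0.17 to 0.051 for Psmd9.cSep08, -2.65 to 0.41 for Usp32.cSep08 and -0.15 to 0.059 for Ube2j1.cSep08-unspliced. The causes were not tested. Leaving out 1 library also moved these values by over 1.5 times without a change of sign. Without ARM replicate 2, Rnf4.cSep08 was at -0.58, Fbxo18.gSep08 at -0.15 and Cul1.dSep08-unspliced at -0.15, and without ARM replicate 3 Rnf4.cSep08 was at -1.62. Fbxo23.bSep08 was at -0.34 without ARM replicate 1 and -0.28 without normal replicate 1. Without normal replicate 2, Cul1.dSep08-unspliced was at -0.37, Ube2d2.bSep08 at -0.14 and Ube2d3.gSep08 at -0.35. Without normal replicate 3, Rnf4.cSep08 was at -0.62, Fbxo18.gSep08 at -0.19, Cul1.dSep08-unspliced at -0.14, Ube2d2.bSep08 at -0.013, Usp33.gSep08-unspliced at 0.10 and Usp33.dSep08 at 0.071.

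Members with a higher estimate made up 55.9% to 64.8% across settings, beside 51.5% of all tested transcripts in the edgeR fit with TMM scaling. Total-count scaling moved the median of all transcripts to 0.06 and of the members to 0.12. The planned limma fits on log2 FPKM were not run. The planned sum over overlapping transcripts of the same strand was not run, since the table gives no strand, and overlaps of either strand were summed instead, chosen after seeing the data. No paired analysis was possible because the headings of the normal columns do not match the labels of single libraries, so the numbers in them could not be tied to the labels' replicate numbers. Low counts limit members such as Psmd9.bSep08, with 2 to 5 counts in the normal libraries.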

Other observations

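The dominant transcripts of the Usp33 and Rnf4 loci took shares that overlapped between groups. Usp33.gSep08-unspliced made up 67.1%, 65.2% and 69.1% of the locus in ARM and 67.0%, 62.5% and 66.2% in normal libraries. Rnf4.dSep08 made up 92.9%, 94.8% and 92.0% in ARM and 94.5%, 93.2% and 94.4% in normal libraries. The less abundant Usp33.eSep08 made up 9.26%, 11.5% and 9.59% in ARM and 11.96%, 12.83% and 11.90% in normal libraries, without overlap. Rnf4.eSep08 made up 1.09%, 1.11% and 1.16% in ARM and 1.58%, 1.32% and 1.29% in normal libraries, also without overlap. Usp33.eSep08 and Rnf4.eSep08 were not chosen by a rule set beforehand. How many transcripts of all loci separated in this way was not counted, so these shares are given as a description.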
